A study of Homo sapiens with 3 samples.

Results

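The 8 loci described here encode small structural RNAs: RNU2-2P, SNORD118, SNORD3A, RN7SK, RN7SL1, RN7SL2, RMRP and RPPH1. The regions come from ChIP-seq, in which DNA bound to a protein is pulled down with an antibody and sequenced. A listed region was assigned to a locus when it came within 2 kb of either end of the hg19 coordinates. Of 17232 regions in 3 lists, 12 met this rule. They were 1 of 536 regions for ZMYND11 in parental cells, 7 of 15676 for ZMYND11 in ETS1-knockout cells and 4 of 1020 for ETS2 in ETS1-knockout cells. The loci were chosen by the listed regions themselves, with their positions known, so the numbers of regions and their places in the lists are a description and carry no test.

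All libraries came from DU145, an established line of human prostate adenocarcinoma that had spread to the brain. ZMYND11, labelled also as BS69, was precipitated from cells with ETS1 and from cells in which ETS1 was knocked out, and ETS2 only from the latter. Whether the knockout line was 1 clone is not stated in the labels, which mention puromycin in the medium of selected cells. Each group was 1 library, and no input, ETS1 or parental ETS2 library was analysed here. No difference between lists can therefore be set against a replicate error, and an effect of the protein or of ETS1 and a difference between libraries cannot be told apart. The lists give a chromosome, a start and an end for each region and no score, so the depth behind a region is unknown. The order of the lines follows no genomic coordinate and its meaning is not stated. The position of a region in that order is called its place, and it is also given as a percentage of the length of the list.

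Small structural RNAs act without being translated, and their genes are among the most heavily transcribed in a dividing cell. RNU2-2P is a copy of the gene for U2, the spliceosomal RNA that pairs with the intron branch point, and RefSeq now lists it as RNU2-2. SNORD118 encodes U8 and SNORD3A encodes U3, small nucleolar RNAs needed for processing ribosomal RNA. These genes are read by RNA polymerase II. RN7SK encodes 7SK, which holds the elongation kinase P-TEFb inactive. RN7SL1 and RN7SL2 encode 7SL, the RNA of the signal recognition particle. RMRP and RPPH1 encode the RNAs of the ribonucleases MRP and P, which cut precursor ribosomal and transfer RNA. These last 5 genes are read by RNA polymerase III. ETS proteins bind DNA around a GGAA core. ZMYND11 binds chromatin marked by histone methylation and is known to repress transcription. The series title names ZMYND11 as a partner through which ETS1 and ETS2 take opposing roles.

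For both RNase RNA genes, RefSeq holds the sequence in front of the adjoining protein-coding gene. RPPH1 neighbours PARP2, and RMRP neighbours CCDC107. Each pair is known to be read in opposite directions from the space between them. The 250 bases before the start of PARP2 and of CCDC107 are shown because the knockout ZMYND11 regions at RPPH1 and RMRP lay on, or reached to, this side of the RNA genes. The PARP2 bases lie on the plus strand of GRCh38.p14 at chr14:20343385-20343634, and the CCDC107 bases on the plus strand at chr9:35658042-35658291. The listed regions are on hg19 and were not converted, so the printed bases are not shown to lie under them. The region at RMRP began 704 bp beyond the RNA gene. Capitals mark TATAA and the octamer ATGCAAAT on either strand, elements known from small RNA gene promoters.
PARP2: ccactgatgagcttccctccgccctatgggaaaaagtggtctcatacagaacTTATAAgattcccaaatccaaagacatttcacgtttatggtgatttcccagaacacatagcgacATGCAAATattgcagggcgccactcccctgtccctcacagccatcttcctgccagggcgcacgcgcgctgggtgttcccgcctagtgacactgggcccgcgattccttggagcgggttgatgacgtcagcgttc
CCDC107: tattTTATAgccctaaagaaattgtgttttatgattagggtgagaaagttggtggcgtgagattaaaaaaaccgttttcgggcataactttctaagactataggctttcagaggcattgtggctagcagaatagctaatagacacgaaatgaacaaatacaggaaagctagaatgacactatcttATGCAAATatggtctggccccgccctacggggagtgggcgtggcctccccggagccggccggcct

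Both sequences held the octamer once and TATAA. Of 35116 RefSeq promoter windows of the same kind (250 bases before to 50 after a start), 1.77% held ATGCAAAT and 20.4% held TATAA. The TATAA matches lay at the far end from the protein-coding start, 193 to 198 bases before PARP2 on both strands, overlapping each other, and 242 to 246 bases before CCDC107 on the minus strand. The longer form TATAAA, held by 11.5% of windows, matched once in the CCDC107 window, on the minus strand, and not in the PARP2 window. The octamer began 134 bases before PARP2 and 65 bases before CCDC107. The ETS core GGAA, which 95.5% of all windows held, matched 8 times in the PARP2 window and once in the CCDC107 window. The longer forms GGAAGT (22.8% of windows) and CCGGAAGT (4.14%) matched in neither, and nor did the AP-1 motif TGANTCA (7.71%). TGACGTCA, the cyclic AMP response element, matched once in the PARP2 window, 7 to 14 bases before the start, against 1.85% of all windows. GGGCGG, the Sp1 motif, matched once in the PARP2 and 2 times in the CCDC107 window (45.0% of windows). In the window of GSTA4, the neighbour of RN7SK, the 3 matches were all to GGAA. Matches are letters in a window and do not show binding. The 3 windows belong to neighbours of RPPH1, RMRP and RN7SK, which had no ETS2 region within 2 kb. Windows of genes beside the loci with an ETS2 region were not examined singly. By symbol, 0 of the 8 RNA genes matched the promoter table.

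RNU2-2P, SNORD118 and SNORD3A, read by RNA polymerase II, each had a region in both ETS1-knockout lists. The 5 loci read by RNA polymerase III each had a region in 1 list only: RN7SK, RN7SL2, RMRP and RPPH1 for ZMYND11 in knockout cells, and RN7SL1 for ETS2. SNORD3A alone also had a parental ZMYND11 region. This division was seen in the same regions that chose the loci, over 8 loci, and was not tested. It depends on the flank: with 5 kb, RN7SL1 also had knockout ZMYND11 regions, at places 34 and 8654. The regions at RMRP and RN7SL1 did not touch the RNA gene. Over all regions, 57.1% of ETS2 regions overlapped knockout ZMYND11, and 3.71% of knockout ZMYND11 regions overlapped ETS2. Of the first 100 knockout ZMYND11 regions, where RNU2-2P, SNORD118 and SNORD3A stood, 76.0% overlapped ETS2.

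In numbers of loci, 7 of 8 had a ZMYND11 region in knockout cells, 4 of 8 an ETS2 region and 1 of 8 a ZMYND11 region in parental cells. As a background, the span of the lists was divided into 5 kb tiles, close in width to a locus with its flanks. Of all tiles 2.49% held a knockout ZMYND11 region, 0.178% an ETS2 region and 0.0999% a parental ZMYND11 region. The loci were picked for their regions, so nothing is read from these differences. The knockout ZMYND11 list was also the longest. Its first 536 regions, the length of the parental list, reached 5 of the 8 loci. Its first 1020, the length of the ETS2 list, reached 6. The loci were picked with these regions known, so an effect of list length was not tested.

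**Figure D1:**
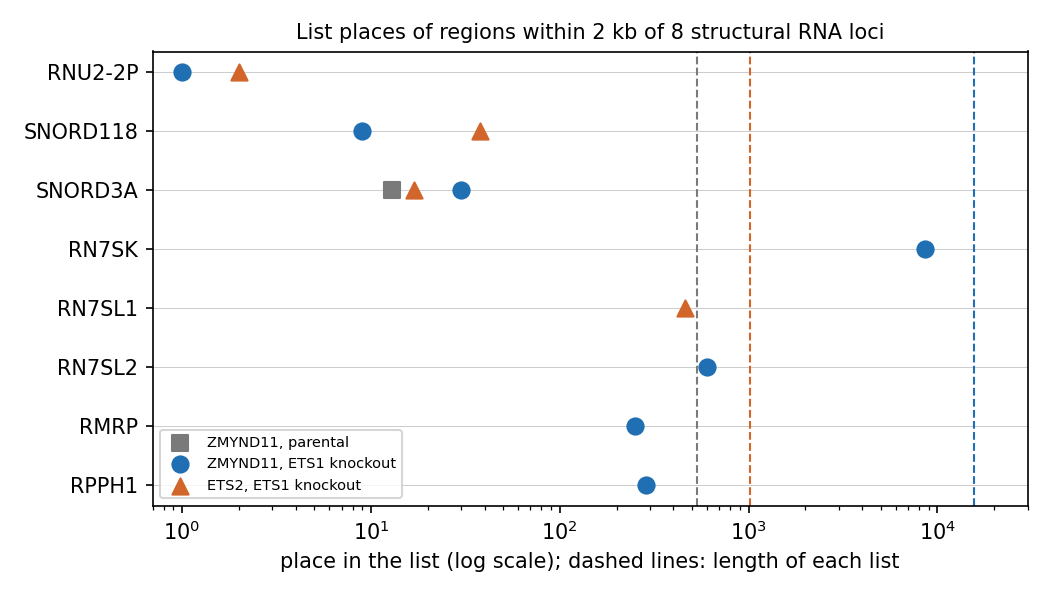
Place of each region within 2 kb of the 8 loci in its list (horizontal axis, log scale), with 1 point per region and dashed lines at the length of each list. RNU2-2P, SNORD118 and SNORD3A sit at places 1 to 38 in every list that holds them, and RN7SK sits at place 8559 of 15676.

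RNU2-2P headed the ZMYND11 list of knockout cells. Its region, chromosome 11, 62608870 to 62609370, was at place 1 of 15676. The ETS2 region, 62608869 to 62609368, was at place 2 of 1020 and first of the 87 ETS2 regions on that chromosome. The locus lies at 62609091 to 62609281, so both regions covered the whole gene. They reached 221 bp (ZMYND11) and 222 bp (ETS2) beyond its lower end and 89 and 87 bp beyond its upper end. The starts of the regions were 1 bp apart and the ends 2 bp apart. In the parental list the nearest region was 18.1 kb away, at place 175. In the RefSeq table on GRCh38.p14 this gene lies within the extent of WDR74, a protein-coding gene, and a signal at one cannot be assigned to the other from coordinates alone.

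SNORD118 (chromosome 17, 8076771 to 8076906) was also covered whole in both knockout lists. The ZMYND11 region, 8076504 to 8077002, was at place 9 of 15676, and the ETS2 region, 8076494 to 8076989, at place 38 of 1020 (3.73% of the list). Both extended farther below the gene, by 267 and 277 bp, than above it, by 96 and 83 bp. RefSeq places SNORD118 within the extent of TMEM107, a ciliary membrane protein gene. No further region of the knockout lists lay within 10 kb, the nearest being a ZMYND11 region 13.3 kb away. The nearest parental ZMYND11 region was 921 kb away.

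SNORD3A was the only locus with a region in all lists. The parental ZMYND11 region, chromosome 17, 19091275 to 19091552, was at place 13 of 536 (2.43%). The knockout ZMYND11 region, 19091272 to 19091571, was at place 30 of 15676 (0.191%), and the ETS2 region, 19091279 to 19091569, at place 17 of 1020 (1.67%). The starts of these regions thus fell within 7 bp of each other and the ends within 19 bp. All lay over the lower end of the interval 19091329 to 19092027 and covered between 31.9% and 34.7% of it. RefSeq gives SNORD3A a length of 217 bases, shorter than the 699 bases of that interval. Where the gene lies in the interval was not looked up, so the share of the gene itself that was covered is not known. The RefSeq neighbour SNORD3C is a further U3 gene, and how reads that fit several U3 copies were handled is not stated.

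Fewer other regions of the knockout lists lay within 100 kb of SNORD3A than of RNU2-2P or SNORD118. The nearest other region of the knockout ZMYND11 list was 75.6 kb away (place 502), and the nearest ETS2 region was at the same position (place 409). The nearest other parental region was 6537 kb away. At RNU2-2P, by contrast, 11 further knockout ZMYND11 regions and 5 ETS2 regions lay within 100 kb, and at SNORD118 there were 11 and 3. At SNORD3A there were 1 and 1. At RN7SK there were 1 and 0. These numbers compare the chosen loci only. No such count was made over the genome, where 2.49% of 5 kb tiles held a knockout ZMYND11 region and 0.178% an ETS2 region.

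The regions at SNORD3A were narrow. Widths were not used to choose the loci. The SNORD3A regions were 277 bp (parental ZMYND11), 299 bp (knockout ZMYND11) and 290 bp (ETS2) wide, against list medians of 493, 496 and 497 bp. The ETS2 region was the narrowest of the 1020 in its list and the only one under 300 bp. In each ZMYND11 list 2 regions were under 300 bp, 0.373% of the parental and 0.0128% of the knockout list. The other parental one was on chromosome 9 (42258740 to 42258968, place 83), and the other knockout one on chromosome 16 (28752113 to 28752403, place 3488), and neither overlapped a region of another list. SNORD3A was therefore the only position listed under 300 bp in more than 1 library. At the other 7 loci, widths were 495 to 501 bp. How the caller set the edges is not stated, and no test was made of this single position.

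**Figure D2:**
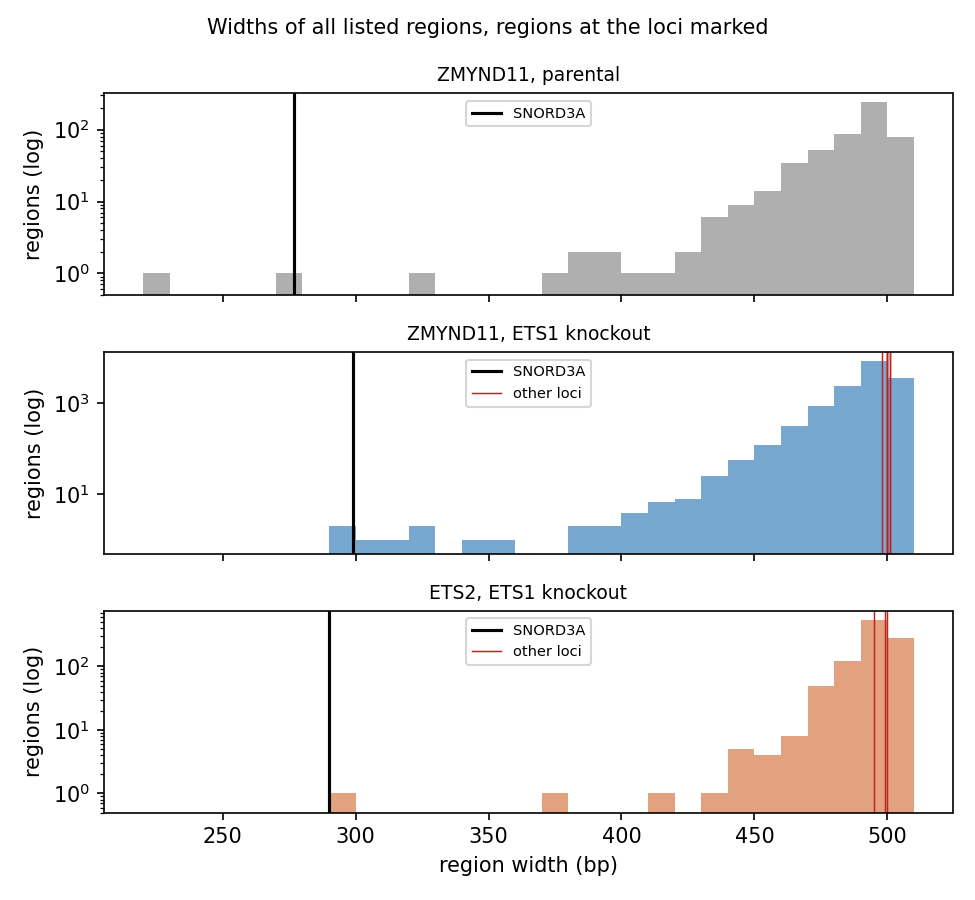
Widths of all listed regions in bp (horizontal axis) against the number of regions (vertical axis, log scale), 1 panel per list, with black lines at SNORD3A and red lines at the other loci. The SNORD3A lines at 277, 299 and 290 bp are far to the left of the bulk of each list, and the red lines fall inside it.

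ETS2 and ZMYND11 regions in knockout cells overlapped by at least 1 bp at RNU2-2P, SNORD118 and SNORD3A. These are 3 of the 4 ETS2 regions at the loci, against 57.1% of all ETS2 regions and 83.0% of the first 100. They are also 3 of the 7 knockout ZMYND11 regions at the loci, against 3.71% of that whole list. The share with ETS2 depended on the place: 76.0% of the first 100 knockout ZMYND11 regions and 33.8% of those at places 101 to 1000 overlapped ETS2. The overlapping regions at the loci were at places 1, 9 and 30, and those without ETS2 at places 251, 286, 602 and 8559. Nothing particular to the loci is read from these counts. Of the parental list 10.4% of regions overlapped a knockout ZMYND11 region and 3.36% an ETS2 region, and the SNORD3A region overlapped both.

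The overlapping regions were nearly superimposed. Between ETS2 and ZMYND11, the midpoints were 1.5 bp apart at RNU2-2P, 2.5 bp at SNORD3A and 11.5 bp at SNORD118. Over all 582 overlapping ETS2 regions the median distance was 138 bp (quartiles 56.5 and 258 bp). Only 9 of those pairs (1.55%) were as close as at RNU2-2P, 12 (2.06%) as close as at SNORD3A and 35 (6.01%) as close as at SNORD118. At SNORD3A the parental ZMYND11 midpoint was 8 bp from the knockout one, where 9 of 56 overlapping pairs (16.1%) were as close. It was 10.5 bp from the ETS2 midpoint, where 2 of 18 pairs (11.1%) were as close. The distances between midpoints did not enter the choice of loci, and early regions can serve as a further background. The 83 overlapping pairs among the first 100 ETS2 regions had a median distance of 121 bp (quartiles 46.0 and 228 bp). Of these, 10 (12.0%) were as close as at SNORD118, 4 (4.82%) as close as at SNORD3A and 2 (2.41%) as close as at RNU2-2P, each count with the locus itself. At SNORD3A the distance is not separate from the narrow widths given above, since narrow regions that overlap cannot have midpoints as far apart as wide ones. These are single positions and were not tested.

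**Figure D3:**
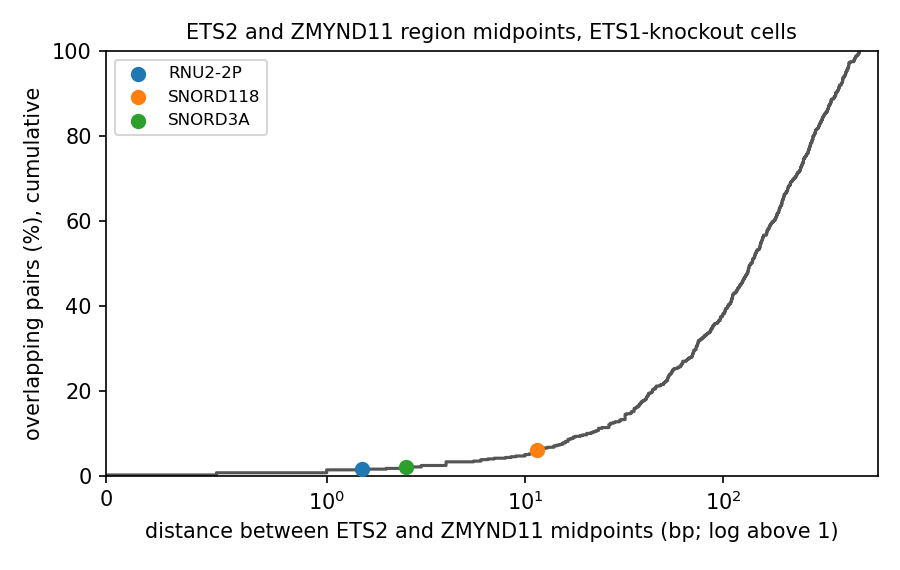
Cumulative percentage of the 582 overlapping ETS2 and ZMYND11 pairs in knockout cells (vertical axis) by the distance between their midpoints in bp (horizontal axis, log scale above 1). RNU2-2P (1.5 bp), SNORD3A (2.5 bp) and SNORD118 (11.5 bp) lie at the closest end, where the median of all pairs is 138 bp.

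RN7SK (chromosome 6, 52860418 to 52860749) had a single region, for ZMYND11 in knockout cells, from 52860313 to 52860813. It covered the whole gene, with 105 bp below and 64 bp above, but stood at place 8559 of 15676 (54.6% of the list). It was the only region of the knockout ZMYND11 list at the loci past the first 50% of the list, and it ranked 327 of 613 on its chromosome. Within 100 kb lay 1 other knockout ZMYND11 region, and the nearest ETS2 region was 8638 kb away.

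The 7SL genes RN7SL1 and RN7SL2 lie 275675 bp apart on chromosome 14 and differed in which protein was listed. At RN7SL2 (50329271 to 50329567) a knockout ZMYND11 region, 50329390 to 50329891, was at place 602 of 15676 (3.84%). It covered 59.8% of the gene and reached 324 bp beyond its upper end. The nearest ETS2 region was 36.8 kb away. At RN7SL1 (50053297 to 50053596) an ETS2 region, 50052647 to 50053147, was at place 459 of 1020 (45.0%) and ended 150 bp below the gene. It overlapped no ZMYND11 region. Of the ETS2 regions at places 401 to 500, 52.0% overlapped a knockout ZMYND11 region.

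Knockout ZMYND11 was listed around RN7SL1, but outside the 2 kb flanks. A region from 50056731 to 50057231 (place 8654) began 3135 bp above the gene. Another, 50048060 to 50048561, stood at place 34 and ended 4736 bp below it, where it overlapped an ETS2 region (50048018 to 50048514, place 145). RefSeq places RN7SL1 within the extent of RPS29, a ribosomal protein gene, and RN7SL2 within that of LOC105378179, a long noncoding RNA gene. Many near-identical copies of 7SL exist in the genome, and reads from them cannot be told apart in these lists.

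The genes for the RNase RNAs had ZMYND11 regions in knockout cells and none in the other lists. At RPPH1 (chromosome 14, 20811230 to 20811570) the region ran from 20811353 to 20811854 at place 286 of 15676 (1.82%). It covered 63.8% of the gene and reached 284 bp beyond its upper end, the side on which RefSeq has PARP2, a DNA repair enzyme gene and the owner of the first sequence printed above. At RMRP (chromosome 9, 35657748 to 35658015) the region ran from 35658719 to 35659219 at place 251 (1.60%). It did not touch the RNA gene and began 704 bp beyond its upper end, the side on which RefSeq has CCDC107. It was the farthest from its gene of the 12 regions. With no flank, RMRP and RN7SL1 would therefore not have been counted. The first regions outside the flanks were at 3135 bp (RN7SL1), 4412 bp (RMRP) and 4671 bp (RNU2-2P), all for ZMYND11 in knockout cells.

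RPPH1 and RMRP had no ETS2 region within their flanks, and over all 5 kb tiles 0.178% held one. The nearest ETS2 region was 855 kb from RPPH1 and 97.2 kb from RMRP, and the nearest parental ZMYND11 regions were 10607 and 50.6 kb away. Within 100 kb there were 5 further knockout ZMYND11 regions at RPPH1 and 13 at RMRP. On chromosome 14 the RPPH1 region ranked 15 and the RN7SL2 region 32 of 714 knockout ZMYND11 regions, and the RMRP region ranked 8 of 769 on chromosome 9.

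**Figure D4:**
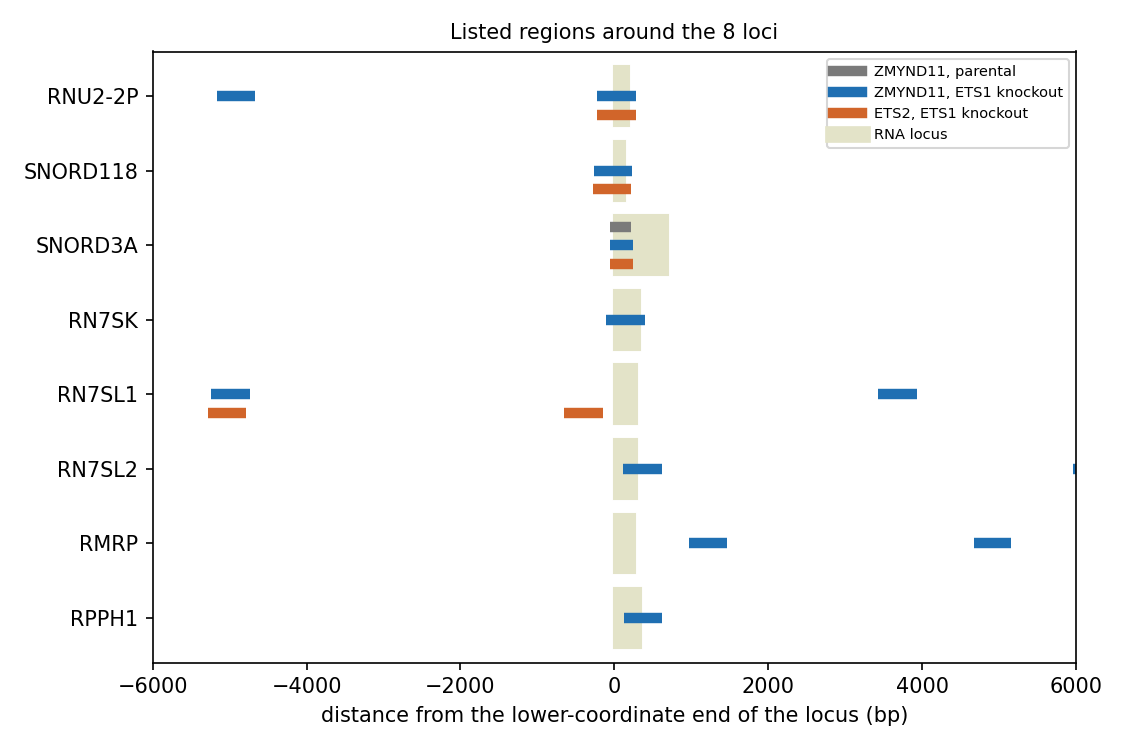
Listed regions (coloured bars, 1 colour per list) around each locus (pale boxes), by distance in bp from the lower-coordinate end of the locus. Regions cover the whole box at RNU2-2P, SNORD118 and RN7SK, part of it at SNORD3A, RN7SL2 and RPPH1, and none of it at RMRP and RN7SL1. At SNORD3A the box is the 699-base interval, longer than the 217 bases of the RefSeq gene.

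By place, the order at the loci in the knockout ZMYND11 list was RNU2-2P, SNORD118, SNORD3A, RMRP, RPPH1, RN7SL2 and RN7SK, from 0.00638% to 54.6% of the list with a median of 1.60%. In the ETS2 list it was RNU2-2P, SNORD3A, SNORD118 and RN7SL1, from 0.196% to 45.0% with a median of 2.70%. RNU2-2P was thus ahead in both, while SNORD118 and SNORD3A exchanged order. With no score, the distance between neighbouring places has no error, and which neighbours differ cannot be said.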

How the data were processed

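Per the submitters' processing notes, reads were handled with Bowtie2 2.0.6 on hg19. How regions were called, with what cutoff or control, and how reads with several matches were treated is not stated. The authors deposited 3 lists of regions, with no other values. Locus coordinates were those of the rule, the members and lists having been chosen with earlier results of these data known. Distances are differences of the deposited coordinates, whose starts may count from 0 or 1. Overlap required 1 bp, and all 8 loci and their regions are named. Places 1 to 100, 101 to 1000 and 401 to 500 were chosen after seeing the data. Overlap and assignment were tested on simulated regions. Motifs were searched on both strands of RefSeq promoter windows (GRCh38.p14), and RefSeq genes served for names and neighbours. Other small RNA genes had been listed for look-up but were not analysed here, since no hg19 annotation was at hand. No test of significance was made. Python 3.11.15, numpy 2.4.6, pandas 2.3.3 and matplotlib 3.10.9 were used.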

Additional observations from a re-analysis of the deposited data

How the results depend on the processing

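Of 81 values recomputed under 9 alternatives, 59 were unchanged. Another 14, all counts of loci or regions, changed by no more than 1.5 times, and 8 changed by more or were median places, for which any change was counted. The number of knockout ZMYND11 regions at the loci was 7 with 2 kb flanks and 11 with 5 kb flanks, which added regions at RN7SL1, RMRP and RNU2-2P. The number of loci reached by knockout ZMYND11 was 7, and ranged from 5 with the list at the parental length to 8 with 5 kb flanks. The median place in the knockout ZMYND11 list was 1.60%, and became 1.01% with no flank, 1.82% with 5 kb flanks, 0.896% over the first 50% of each list, 0.191% at the parental length and 0.896% at the ETS2 length. Shortening a list removes its late places by construction. The median place in the ETS2 list was 2.70%, and became 1.67% with no flank and 3.73% with 5 kb flanks. Counts of overlapping regions were the same for reciprocal overlap of 50% and for midpoints within 1000 bp. The cuts to equal length were added after seeing the data. No paired analysis was possible because each group is 1 library, and for the same reason no replicate could be left out.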
